A study of Homo sapiens with 4 samples.

Results

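Matrix metalloproteinases are zinc-dependent proteases that cleave extracellular matrix. The 8 genes described here encode secreted family members: the collagenases MMP1 and MMP13, the gelatinases MMP2 and MMP9, the stromelysins MMP3 and MMP10, the matrilysin MMP7, and MMP19. Their rows were found by gene name. The deposited table of 57659 rows holds 10 rows with one of these names, because MMP13 and MMP3 each have a second Ensembl identifier. Both of those second rows had 0 counts in every library, so 8 genes remained. Of these 8, 5 had enough reads to be tested and 3 (MMP3, MMP10 and MMP19) did not.

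The samples were 786-0 cells, 1 established human renal cell carcinoma line. RNA was measured by poly(A)-selected RNA-seq in 2 libraries after transfection of control siRNA (Control 1 and Control 2) and 2 after transfection of siRNA directed at SLFN5, a Schlafen family gene (SLFN5 siRNA 1 and SLFN5 siRNA 2). The labels give neither the time after transfection nor the siRNA sequences, and they do not say that libraries came from separate cultures. The p-values therefore measure the spread between these libraries, which may be technical. The series title ties SLFN5 to motility and invasiveness, and the comparison asks which of these protease transcripts differ when SLFN5 is reduced.

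Secreted metalloproteinases are made as inactive precursors, held shut by a cysteine in the propeptide that binds the catalytic zinc. Collagenases cut the triple helix of fibrillar collagens, and gelatinases degrade the unwound chains and basement membrane collagen IV. Stromelysins and matrilysin have broader substrates and can activate other precursors, while tissue inhibitors of metalloproteinases (TIMPs) block the active enzymes. Transcription of several of these genes is known to respond to growth factors and cytokines through AP-1 and ETS sites near the start of the gene.

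The catalytic site is the feature that all 8 members share and that the gene names did not use. The coding stretch for this site, 33 bases in a GENCODE v29 transcript of each gene, is shown because every member holds it. Capitals mark the codons of the 3 histidines that hold the zinc, in the pattern HEXXHXXGXXH, where X is any residue.
MMP1: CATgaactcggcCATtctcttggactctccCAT
MMP13: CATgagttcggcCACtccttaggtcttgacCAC
MMP2: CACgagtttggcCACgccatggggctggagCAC
MMP9: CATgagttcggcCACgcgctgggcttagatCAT
MMP3: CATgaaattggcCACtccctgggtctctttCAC
MMP10: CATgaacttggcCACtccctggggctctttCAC
MMP7: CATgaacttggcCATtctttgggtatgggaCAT
MMP19: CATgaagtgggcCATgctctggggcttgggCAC

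Each stretch lies within a single coding exon: exon 8 of 13 in MMP2 and MMP9, and exon 5 in the other members. In GRCh38, a later build than the one used for the reads, the stretch of MMP1 is chr11:102795549-102795581 and that of MMP13 is chr11:102952115-102952147, both on the minus strand. That of MMP2 is chr16:55491827-55491859 and that of MMP9 is chr20:46012453-46012485, both on the plus strand. The collagenase stretches of MMP1 and MMP13 are identical at 22 of 33 bases, and the gelatinase stretches of MMP2 and MMP9 at 24. The stromelysins MMP3 and MMP10 match at 31 of 33 bases. Their transcripts share an identical run of 96 bases, so single-end reads there could have been assigned to either gene and their separate counts are uncertain. The longest run shared by any other pair of members was 23 bases, between MMP2 and MMP9. The encoded proteins ranged from 267 residues in MMP7 to 707 in MMP9. The propeptide pattern PRCGVPD or PRCGNPD was found in 7 of the 8 translations and not in that of MMP19. Only these exact forms were searched, so a variant form of the propeptide pattern in MMP19 would have been missed.

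Promoter sequence from RefSeq was at hand for 2 members, MMP7 and MMP10, and is shown because both are chromosome 11 cluster genes with low read counts here. Each run is the 250 bases before the start of the gene, 5′ to 3′ on the minus strand of GRCh38.p14 (MMP7 at chr11:102530748-102530997 and MMP10 at chr11:102780629-102780878). Capitals mark matches to TGANTCA (AP-1), GGAAGT or AGGAAG (the ETS core) and TATAAA (the TATA box), on either strand.
MMP7: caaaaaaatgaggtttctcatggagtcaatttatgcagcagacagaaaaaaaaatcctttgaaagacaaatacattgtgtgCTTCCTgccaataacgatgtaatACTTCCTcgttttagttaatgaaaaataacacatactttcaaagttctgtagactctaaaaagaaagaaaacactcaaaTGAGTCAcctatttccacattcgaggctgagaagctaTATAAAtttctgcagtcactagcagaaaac
MMP10: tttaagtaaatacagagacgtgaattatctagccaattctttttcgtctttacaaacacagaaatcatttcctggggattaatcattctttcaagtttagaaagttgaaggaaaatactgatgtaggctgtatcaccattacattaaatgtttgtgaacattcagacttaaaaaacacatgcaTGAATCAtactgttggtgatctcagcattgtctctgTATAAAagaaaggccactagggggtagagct

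Both promoters have 1 match to TGANTCA, starting at position -67, and 1 to TATAAA, starting at -30 in MMP7 and -31 in MMP10. Of all 35116 promoters in the table, 6.57% hold TGANTCA and 10.7% hold TATAAA in the same 250 bases. MMP7 has 3 matches to the ETS core, 2 of which overlap each other, and MMP10 has none (38.4% of all promoters hold one). Neither has CCGCCC, the GC box, which 42.6% of promoters hold. These matches describe letters only.

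Values below are equalised counts, that is, read counts that the authors adjusted to a common library size. Depth, recovered by inverting that adjustment, was 13187517 to 31905328 counts per library, with Control 1 the deepest and Control 2 the shallowest. SLFN5 itself stood at 420 and 353 equalised counts in the controls and at 167 and 118 after SLFN5 siRNA, which is a log2 change of -1.45 with an SE of 0.21 (adjusted p = 0.000524, limma). Of 11 markers of renal carcinoma lines, all 11 were expressed at a testable level, among them PAX8, a kidney lineage factor, at a mean of 3928 equalised counts in the controls. These markers were not all steady between groups. By limma, 2 of the 11 were higher after SLFN5 siRNA, 3 were lower and 6, PAX8 among them, did not pass. The background of calls was broad. Of the 15640 genes tested with limma, 29.6% had an adjusted p under 0.05, comprising 13.3% with more and 16.3% with less RNA in the SLFN5 siRNA libraries. With limma-voom on recovered counts, which changed the scaling to library totals and the variance model together, 2800 were higher and 1823 lower, against 2086 and 2544. That fit moved the median log2 change of all genes by 0.12.

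Both collagenase transcripts and the gelatinase MMP2 were higher after SLFN5 siRNA. MMP13 had a log2 change of 3.46, MMP1 of 1.89 and MMP2 of 0.95, whereas MMP9 and MMP7 did not pass the test. Thus 3 of the 5 tested members were higher and 0 lower, beside 13.3% and 16.3% of all tested genes. The median log2 change of the 5 was 0.95, beside -0.03 for all tested genes. In 4 of the 5, both SLFN5 siRNA libraries lay above both controls, which was so for 30.5% of all tested genes. With 5 tested members these counts describe the genes named and no wider family.

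**Figure D1:**
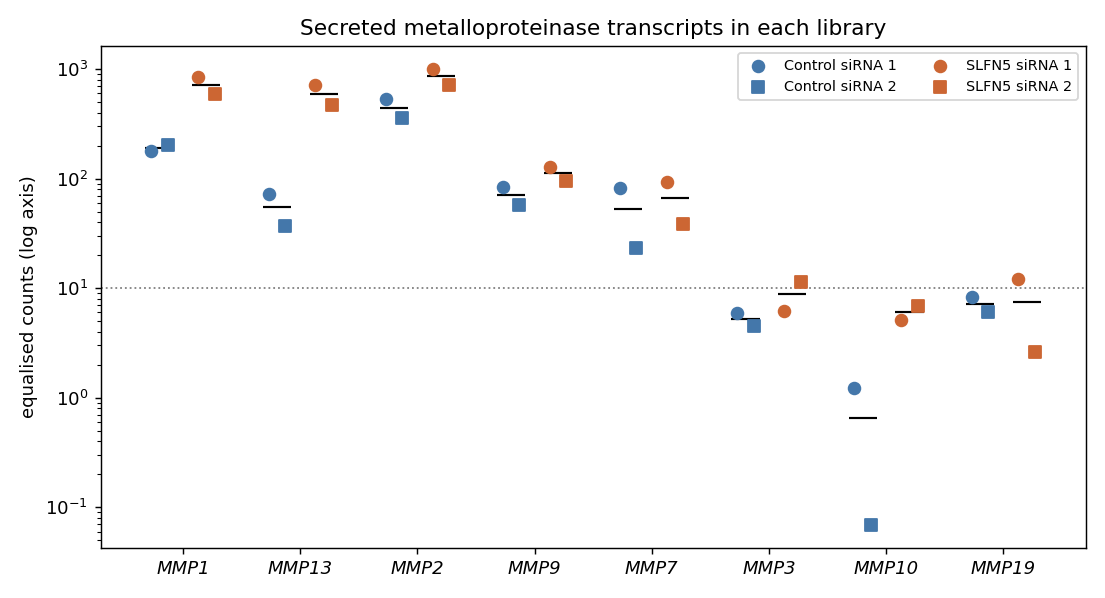
Equalised counts (log axis) of the 8 members in each library, with circles for replicate 1, squares for replicate 2, blue for control siRNA, orange for SLFN5 siRNA and black bars for group means. The dotted line is the minimum of 10 needed in 2 libraries. The SLFN5 siRNA libraries lie above both controls for MMP1, MMP13, MMP2 and MMP9, and the groups interleave for MMP7 and MMP19. They also lie above both controls for MMP3 and MMP10, which had too few reads to be tested.

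MMP13, the collagenase with a preference for collagen II, was the member with the largest change. It stood at 72.8 and 36.8 equalised counts in Control 1 and Control 2, and at 716 and 470 in SLFN5 siRNA 1 and SLFN5 siRNA 2. The underlying reads numbered 122 and 24 in the controls, and 700 and 404 after SLFN5 siRNA. The lower SLFN5 siRNA library was 6.46 times the higher control, so the groups lay far apart, although the controls themselves differed 1.98-fold. The ratio of the group means was 10.8, and the fitted log2 change of 3.46 had a 95% confidence interval of 2.78 to 4.14 (limma adjusted p = 2.74e-05). By size of increase MMP13 ranked 6 of the 15640 tested genes.

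MMP1, the interstitial collagenase, was the more abundant collagenase in every library. Its values were 179 and 203 equalised counts in the controls, and 846 and 596 after SLFN5 siRNA. The controls differed little, and both SLFN5 siRNA libraries exceeded both controls, by at least 2.93-fold. The means were 191 ± 17.2 and 721 ± 177 (SD, n = 2), a fitted change of 3.71-fold with an interval of 2.77 to 4.96 (limma adjusted p = 5.50e-05). MMP1 ranked 144 by size of increase. Of its 1970 exonic bases, 150 overlap exons of WTAPP1 on the opposite strand, and the library kit does not mark strand. WTAPP1 had 6 recovered counts over all 4 libraries.

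MMP2, gelatinase A, had the highest equalised counts of the members in the controls. It stood at 531 and 360 there, and at 1007 and 711 after SLFN5 siRNA. The groups did not overlap, but the higher control reached 531 against 711 in the lower SLFN5 siRNA library, a ratio of 1.34. The fitted change was 1.93-fold, with an interval of 1.41 to 2.65 (limma adjusted p = 0.00525). Leaving out SLFN5 siRNA 1, so that its group held a single library, ended the call, with a log2 change of 0.70 (adjusted p = 0.0534). So did leaving out the intensity trend, by which limma lets the variance depend on the level (adjusted p = 0.109).

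MMP9, gelatinase B, was at 83.2 and 57.8 equalised counts in the controls and at 129 and 95.7 after SLFN5 siRNA. Both SLFN5 siRNA libraries were above both controls, but the closest pair differed 1.15-fold. The log2 change of 0.67 (SE 0.29) did not pass over all genes (limma adjusted p = 0.105). Its interval ran from 0.04 to 1.31 on the log2 scale, so a change of the size seen for MMP2 lies inside it. For both gelatinases replicate 1 was higher than replicate 2 within each group, 1.48-fold and 1.42-fold for MMP2 and 1.44-fold and 1.34-fold for MMP9. The same held for MMP13 (1.98-fold and 1.52-fold) and MMP7 (3.52-fold and 2.46-fold). For MMP1 it held after SLFN5 siRNA (1.42-fold) but not in the controls (0.88-fold).

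MMP7, matrilysin, the smallest of the encoded enzymes, varied more within groups than between them. Its values were 82.3 and 23.3 equalised counts in the controls, and 93.9 and 38.2 after SLFN5 siRNA. Control 1 was 3.52-fold above Control 2 and SLFN5 siRNA 1 was 2.46-fold above SLFN5 siRNA 2, and the groups overlapped. Control 1, the higher control, was the deepest library and Control 2 the shallowest, and the part of depth in this spread was not tested. The log2 change of 0.44 (SE 0.55) did not pass (limma adjusted p = 0.597), with an interval of -0.77 to 1.64. Its sign depended on single libraries: it was -0.45 without Control 2 and -0.20 without SLFN5 siRNA 1. Without Control 1 it was 1.32 (adjusted p = 0.0395). With a library left out, 1 group holds a single library, which is assumed to vary like the other group, here and in every such fit.

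**Figure D2:**
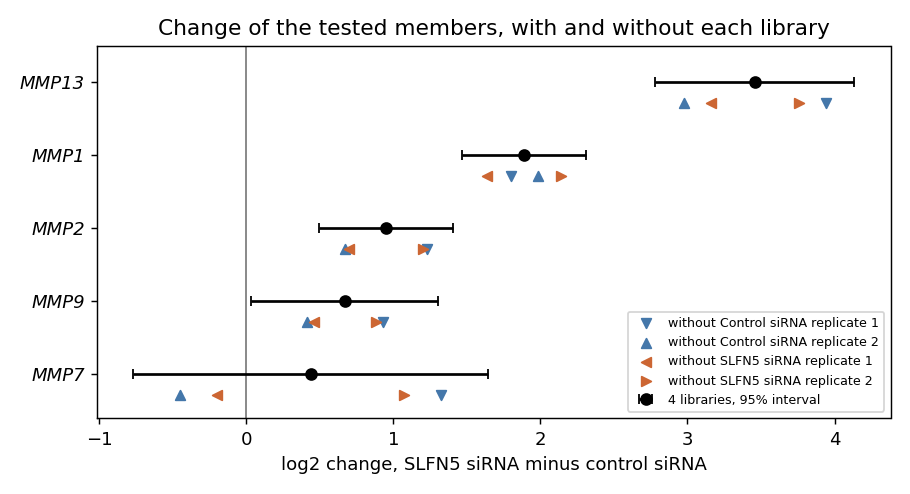
Log2 change (SLFN5 siRNA minus control siRNA) of the 5 tested members, as black points with 95% intervals from limma, and coloured triangles for the change with each library left out. MMP13 and MMP1 stay far above 0 in every fit, and MMP7 falls on both sides of it.

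Both stromelysins were close to the detection limit. MMP3 had 10 and 3 recovered counts in the controls and 6 and 10 after SLFN5 siRNA, a rate ratio of 1.61 whose exact 95% interval of 0.727 to 3.65 includes 1. MMP10 had 2 and 0 counts in the controls and 5 and 6 after SLFN5 siRNA. A count of 0 in Control 2 (3 counts of the total) allows up to 0.227 CPM, the unit of counts scaled by the library total, and MMP10 stood at 0.292 and 0.408 CPM in the SLFN5 siRNA libraries. The rate ratio of MMP10 was 7.21, with an exact interval of 1.57 to 66.9. These intervals cover counting error only, take no account of spread between libraries, and rest on so few reads that neither gene was tested. With no filter on low values, MMP10 had a log2 change of 2.18 that did not pass (limma adjusted p = 0.0854).

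MMP19, a widely expressed basement membrane protease, had 14 and 4 recovered counts in the controls and 12 and 2 after SLFN5 siRNA. The groups overlapped, and the rate ratio was 1.02 (exact 95% interval 0.469 to 2.17). Of its 4672 exonic bases, 814 overlap exons of TMEM198B on the opposite strand. TMEM198B had 89 recovered counts against 32 for MMP19, and without strand the reads of the overlap cannot be told apart. Other secreted family genes were nearly silent: none of the 8 listed (MMP8, MMP11, MMP12, MMP20, MMP21, MMP26, MMP27 and MMP28) could be tested. MMP11 had the most reads, 22 over 4 libraries, and MMP12, MMP26 and MMP27 had 0.

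Levels of different genes can be compared only per length, so each value was divided by the gene's exonic length in GENCODE v29. That length joins the exons of all annotated transcripts of a gene, and was 1970 bases for MMP1, 2834 for MMP13 and 4933 for MMP2. Which transcripts these cells make was not measured. A gene whose main transcript is shorter than this length would read too low, so orders and shares between genes are approximate. In equalised counts per kilobase, MMP1 and MMP2 were level in the controls, at 97.1 ± 8.73 and 90.3 ± 24.5 (SD, n = 2), a difference within their spread. MMP9 followed at 30.2 ± 7.68, MMP7 at 22.7 ± 17.9 and MMP13 at 19.3 ± 8.99, and these 3 did not differ beyond their spread. MMP3, MMP19 and MMP10 were each under 3 in every control library. After SLFN5 siRNA the order was MMP1 at 366 ± 90.0, MMP13 at 209 ± 61.2, MMP2 at 174 ± 42.5, MMP9 at 48.0 ± 9.99 and MMP7 at 28.4, with MMP7 at 40.4 and 16.4 in the 2 libraries. The means of MMP13 and MMP2 lay within each other's spread in that order. Within the single SLFN5 siRNA libraries MMP13 was at 1.24 and 1.15 of the MMP2 level, and in the controls at 0.239 and 0.178 of it.

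The summed level of the 8 members per kilobase was 301 and 228 in the controls, and 990 and 680 after SLFN5 siRNA, a ratio of means of 3.16. Collagenases made up 38.8% and 51.1% of that sum in the controls, and 68.9% in each of the SLFN5 siRNA libraries. Most of the added share was MMP13, at 8.55% and 5.71% in the controls against 25.5% and 24.4% after SLFN5 siRNA. The gelatinase share was 47.6% and 42.9% in the controls, and 26.2% and 27.2% after SLFN5 siRNA, although the MMP2 level itself was higher. These shares follow from the changes of the single members and are no separate test.

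**Figure D3:**
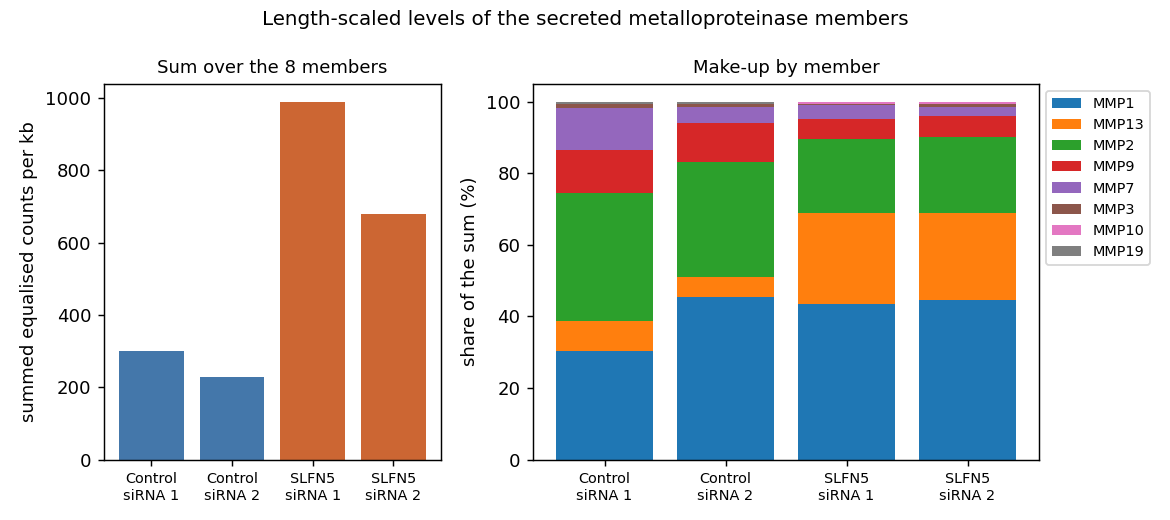
Left, the sum over the 8 members in equalised counts per kilobase of exon, for each library. Right, the share of each member in that sum. The MMP13 share is 5.71% to 8.55% in the controls and 24.4% to 25.5% in the SLFN5 siRNA libraries.

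The changes of the members were also set against each other within each library. The log2 ratio of MMP13 to MMP1 was -1.30 and -2.47 in the controls, and -0.24 and -0.34 after SLFN5 siRNA. The log2 ratio of MMP1 to MMP2 was -1.57 and -0.82 in the controls, and -0.25 in each of the SLFN5 siRNA libraries. In both cases the groups did not overlap. An exact two-sided permutation test of such a ratio over 4 libraries gives p = 0.333 for each of the 4 ratios compared (MMP13 to MMP1, MMP13 to MMP2, MMP1 to MMP2 and MMP2 to MMP9). That is also the value adjusted over the 4, and the smallest that 2 against 2 libraries allow.

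Of the 8 members, 5 (MMP7, MMP10, MMP1, MMP3 and MMP13) lie in a run of 9 metalloproteinase genes on chromosome 11. The other members lie on chromosomes 16 (MMP2), 20 (MMP9) and 12 (MMP19). Within that cluster 3 genes were tested, and the genes without enough reads (MMP20, MMP27, MMP8, MMP10, MMP3 and MMP12) lie between MMP7 and MMP13. The reference gene order held 45 non-metalloproteinase genes in the cluster or within 1 Mb of it. Of these, 15 were found by name among the deposited rows, and 7 were tested. Among the 7, 1 was higher, 4 were lower and 2 did not pass, beside 13.3% higher and 16.3% lower among all tested genes. DCUN1D5, the next tested gene beyond MMP13, stood at 1187 and 1200 equalised counts in the controls and at 693 and 732 after SLFN5 siRNA. Its log2 change was -0.74 with an SE of 0.13 (adjusted p = 0.00119, limma). On the side of MMP7, the nearest tested gene TMEM123 fell by 0.55, and the apoptosis inhibitors BIRC2 and BIRC3 fell by 0.85 and 1.43. YAP1, a transcriptional coactivator beyond them, rose by 0.88 (SE 0.11, adjusted p = 0.000241). MMP1 and MMP13 thus lay between tested neighbours that were lower, with MMP7 on one side not passing the test. KIAA1377 and DYNC2H1, farther out, did not pass.

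**Figure D4:**
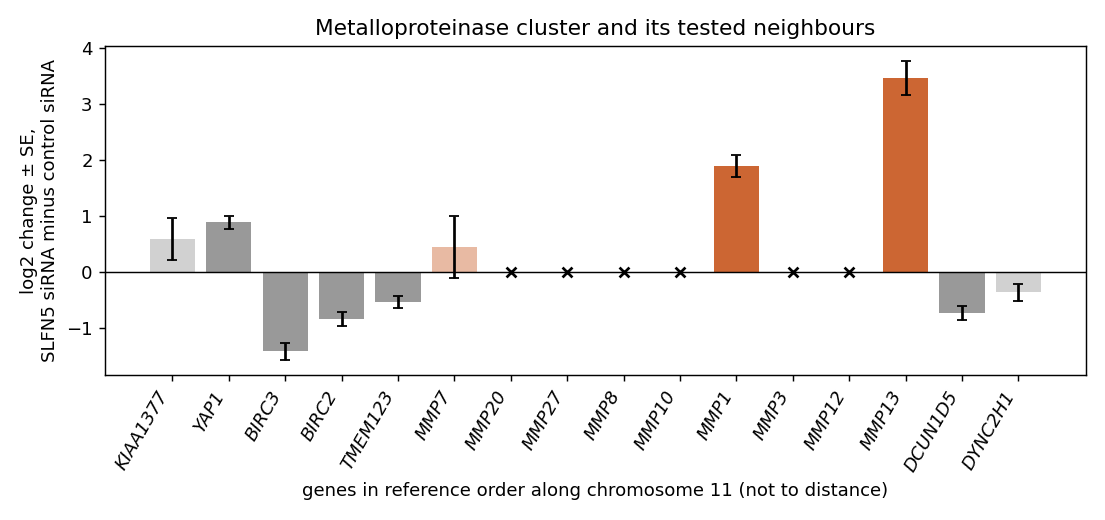
Log2 change ± SE of the tested genes in and near the chromosome 11 cluster, in reference order and not to distance. Orange bars are metalloproteinases, grey bars are other genes, pale bars did not pass the test and crosses mark cluster genes with too few reads. MMP1 and MMP13 are positive, whereas the nearest tested neighbours TMEM123 and DCUN1D5 are negative.

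For each member that passed, the genes with the most similar pattern over the 4 libraries were found by Euclidean distance between gene-centred log2 values. The closest to MMP13 was TCN1, a vitamin B12-binding protein gene, at a distance of 0.24 and a log2 change of 3.53, though its controls held 1.22 and 0.07 equalised counts. Next was MAP7D2, at a distance of 0.53 and a log2 change of 2.94. Near MMP1 was PANX2, a pannexin channel gene (0.13, log2 change 1.78). The closest named coding genes to MMP2 were MAP7, a microtubule-associated protein gene (0.08, log2 change 1.01), and the ETS family factor ELF3 (0.09, log2 change 0.96). Distances over 4 libraries are descriptive.

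Partners of the secreted enzymes went in both directions. The counts of each list below stand beside 13.3% higher and 16.3% lower among all tested genes. Of 5 tested membrane-type metalloproteinases, which act at the cell surface and can activate secreted precursors, 4 were higher and 0 lower (median log2 change 0.73). Among them MMP14, the activator of pro-MMP2, rose by 0.72 (adjusted p = 0.000762), and the per-kilobase ratio of MMP2 to MMP14 was 0.0888 and 0.0686 in the controls and 0.105 and 0.0806 after SLFN5 siRNA, overlapping between groups. MMP24 and MMP15 rose by 1.60 and 1.42, and MMP16 had a log2 change of 0.72 that was lost without any single library (highest adjusted p 0.237).

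Of 3 tested inhibitors (TIMP1, TIMP2 and RECK; median 0.16), TIMP2 rose by 0.68 and the others did not pass. The log2 change of TIMP1 was 0.16 (adjusted p = 0.411). For RECK, a membrane-anchored inhibitor, it was -0.50 (adjusted p = 0.0977). Per kilobase, MMP1 stood at 0.159 and 0.210 of the TIMP1 level in the controls, and at 0.693 and 0.532 after SLFN5 siRNA. For MMP13 these fractions were 0.0450 and 0.0264, and 0.407 and 0.292. The MMP2 to TIMP2 ratio, by contrast, overlapped between groups, at 0.642 and 0.445 against 0.680 and 0.616.

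Of 12 tested activating and docking partners, 2 were higher and 3 lower (median 0.09). The proteoglycan SDC1 and the protease cathepsin B (CTSB) rose by 0.94 and 0.51, and the urokinase receptor PLAUR fell by 0.63. PLAT, the tissue plasminogen activator (log2 change -1.58), was lost in 2 of the 4 fits that leave out a library (highest adjusted p 0.132, without Control 2) and at equal depth (0.072). CD44, a docking receptor for MMP9 (log2 change -0.38), was lost in 3 of those fits (highest adjusted p 0.408, without Control 2), at equal depth (0.052) and with voom on library totals (0.137). Of 3 tested clearance receptors and carriers, 1 was higher and 1 lower (median 0.33). LRP1, the endocytic receptor that takes up several of these enzymes, had a log2 change of 1.11 that was lost without SLFN5 siRNA 1 (adjusted p = 0.0785). THBS1, which binds MMP2 and MMP9, fell by 2.50.

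Of 12 tested substrates, 3 were higher and 3 lower (median 0.19). Among basement membrane genes, the collagen IV chain COL4A1 rose by 1.27 and the laminin chain LAMA3 by 0.88. The matricellular genes TNC and SPARC fell by 1.71 and 0.58. COL5A2, a minor fibrillar collagen chain, was called at 0.91 but not when any single library was left out (highest adjusted p 0.142). COL1A1, a chain of the fibrillar collagen cut by MMP1, had 202 recovered counts over 4 libraries and a log2 change of -0.19 that did not pass (adjusted p = 0.772).

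Of 25 tested transcription factors known to act on promoters of this family, 5 were higher, 4 lower and 16 did not pass (median 0.11), beside 13.3% higher and 16.3% lower among all tested genes. Calls for 2 of the 9, STAT3 (a rise of 1.04) and NFKB1 (which fell by 0.62), were kept whichever library was left out. Among AP-1 subunits, JUND was called higher (0.84) and JUNB lower (-0.40), but JUND was lost in 2 of the 4 fits that leave out a library (highest adjusted p 0.288, without SLFN5 siRNA 1) and JUNB in 3 (highest 0.15, without Control 2) and with voom on library totals (0.105). FOSL1, FOSL2 and JUN had log2 changes of -0.19, 0.11 and -0.21, none of which passed. FOS and FOSB, at means of 7.81 and 7.32 equalised counts in the controls, had larger log2 changes of 1.31 and 0.89. Neither passed (limma adjusted p = 0.123 and 0.294). RUNX2, a regulator of MMP13, had one of 0.39 (adjusted p = 0.103). ELF3, which is also among the genes closest to MMP2 in pattern, had a log2 change of 0.96 that was lost without SLFN5 siRNA 1 (adjusted p = 0.0825). Of 19 tested inducing ligands and receptors, 3 were higher and 7 lower (median -0.02), and 7 of these 10 calls were kept whichever library was left out. The epidermal growth factor receptor ligands TGFA and EREG rose by 2.85 and 1.06, whereas HBEGF fell by 2.20, TGFB2 by 1.96 and the receptor EGFR by 0.91. Without the intensity trend in the variance, 32 of the 49 called genes among the partners, markers and neighbours did not pass.

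Fibroblasts and macrophages also make these proteases, so markers of such cells were read in the same libraries. In bulk RNA, fewer cells of a type and less RNA per cell cannot be told apart. Of 7 macrophage and leukocyte markers 3 were tested, and their summed level was 228 to 243 equalised counts in the controls and 616 to 643 after SLFN5 siRNA. CD68, a lysosomal protein of many cell types, made up most of that sum (log2 change 1.56). ITGAM, a myeloid integrin, had a mean of 6.71 in the controls and 24.2 after SLFN5 siRNA, a log2 change of 1.96 that did not pass (adjusted p = 0.0559). CSF1R, a macrophage receptor, stood at a mean of 26.0 in each group, and CD14 had 19 recovered counts over 4 libraries. PTPRC, the pan-leukocyte marker, had 1 read in all, and there was none for CD163 or CD3E. Of 6 fibroblast markers 4 were tested, with a summed level of 102 to 137 in the controls and 61.9 to 81.7 after SLFN5 siRNA, and FAP had 1 recovered count. LUM, a matrix proteoglycan, was the most abundant of them, at a mean of 72.3 in the controls and 36.6 after SLFN5 siRNA (adjusted p = 0.0789). PDGFRB was the 1 fibroblast marker called, lower by limma, and that call was lost in 3 of the 4 fits that leave out a library (highest adjusted p 0.13, without Control 2). Of 4 endothelial markers 0 were tested, with summed levels of 0.31 to 6.51 and 2.30 to 3.06, and PECAM1 had 0 counts. The labels name the cell line 786-0 for both groups and no other cells. The part of other cells in the MMP1 and MMP13 values was not tested.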

How the data were processed

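RNA-seq was measured in 4 libraries, 2 per group, made with the TruSeq RNA v2 kit and sequenced from one end, per the labels' protocols. The series' design text speaks of triplicates, and how these relate to the 4 libraries is not stated. Per the submitters' processing notes, the authors used edgeR and the hg19 build. Which aligner, counting program and annotation they used is not given in the sources used here. Values deposited by the authors are a signal per gene, namely counts adjusted to a common library size and not whole, here called equalised counts. Inverting that adjustment (tolerance 1e-06) gave whole counts for 100% of 230636 values. Counts of libraries within a group differed by more than sampling noise, with a chi-square of 18.0 (controls) and 17.8 (SLFN5 siRNA) for each degree of freedom.

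The 15640 genes that reached 10 equalised counts in 2 or more libraries were tested with limma 3.58.1 in R 4.3.3 on log2(value + 1), with group as the only term and an intensity trend. P-values were adjusted by the Benjamini-Hochberg method across these genes, at a threshold of 0.05. Changes on this scale understate those of low genes. The code was tested on simulated data. The members and lists were chosen with earlier results of these data known. All members are named. Other lists are given by counts, naming up to 4 called genes with the lowest adjusted p and genes whose call was lost without a library. TIMP1, RECK, COL1A1, RUNX2, EGFR, FOS, FOSB, FOSL1, FOSL2, JUN and the cell type markers named were chosen after their values were seen. Neighbours were taken from RefSeq gene order, with GENCODE v29 used for exon lengths. Alternatives were other pseudocounts, filters, scalings, variance models, equal depth, a replicate block and leaving out each library. Some genes of these lists are not reported here by name.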

Additional observations from a re-analysis of the deposited data

How the results depend on the processing

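MMP1 and MMP13 kept their direction and their call in all 14 alternatives, with log2 changes of 1.64 to 2.14 and 2.98 to 3.94. Without the intensity trend, the limma adjusted p was 0.042 for each, just under the threshold. In the main fit it was 5.5e-05 for MMP1 and 2.74e-05 for MMP13. MMP2 kept its direction in all 14 (0.67 to 1.23) and its call in 12. MMP9 was above 0 in all 14 and passed with the replicate block alone (adjusted p = 0.0325). MMP7 reversed without Control 2 (-0.45) and without SLFN5 siRNA 1 (-0.20), and was highest without Control 1 (1.32). Without each library in turn, 2 to 4 members and 2941 to 3951 genes were called, the lowest number of genes without Control 2. Without the intensity trend 1182 genes were called in place of 4630, and the cause was not tested. With the replicate block 6703 genes and 4 members were called. Same-numbered libraries deviated together with a correlation of 0.19 over genes, but the labels do not say what the title codes shared by these libraries mark and there are only 2 pairs, so the numbers were not taken to pair the libraries. Relative to the median of all genes, the MMP1, MMP13 and MMP2 changes were 1.92, 3.49 and 0.98, and 1.96, 3.41 and 0.93 with voom on library totals. Depth limits MMP3, MMP10 and MMP19, which had 29, 13 and 32 counts in all.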
